A study of Homo sapiens with 5 samples.

Results

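The culture compared was H1, a human embryonic stem cell line, after 6 days in E8 medium with BMP4 and 16 mM added pyruvate, set against H1 cells kept for 2 days in E8 alone. The comparison took in every gene with at least 1 probe detected (detection p-value under 0.01) on either array, which was 12018 of the 20041 genes with a named probe. Of these, 9907 genes were detected on both arrays, 674 on the day 6 array only and 1437 on the E8 array only. At the edge of that rule, the 48 genes whose detection p was 0.00909 had median levels of 5.35 at day 6 and 5.52 in E8. The 30 genes just outside it, at 0.0104, had 5.84 at day 6 and 5.02 in E8, and are not members.

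BMP4 is a secreted ligand of the TGF-beta family that signals through SMAD proteins and helps to pattern the early embryo. In cultures of pluripotent cells it moves cells out of self-renewal towards primitive streak, mesoderm and extraembryonic fates, and WNT and NODAL signals act together with it in the embryo's streak. Pyruvate is the end product of glycolysis, which can enter the mitochondria or be reduced to lactate.

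The series held 5 arrays, 1 for each of 5 conditions: BMP4 plus pyruvate for 6 days, the same mixture for 2 days, BMP4 for 2 days, 16 mM pyruvate for 2 days, and E8 for 2 days. All cultures were H1 cells, a single line, in E8, which is a medium of defined composition, on plates coated with Matrigel, and how dense each culture was is not stated. No E8 culture of 6 days and no 6 day culture with BMP4 or pyruvate alone was analysed here, so time, BMP4 and pyruvate cannot be told apart in the comparison. Each condition had 1 array, so there is no spread between cultures and no test. A gene counted as higher or lower where its level differed by at least 1 on the log2 scale, which is 2-fold, and its probe was detected on the brighter array. A gene detected on 1 array only became a member through that array, so its direction was largely fixed by the rule of entry. A level is the background-corrected, quantile-normalized log2 intensity of the gene's probe. Levels of different genes come from different probes and are not compared with each other. Where no probe of a gene was detected on the dimmer array, the fold is a bound, written as "at least". The bright level is then set against the dim probe's own level or, where that is smaller, against the dimmest level at which any probe was detected on that array. A bound holds for the probe used, and a further probe of the gene can differ by less. The RNA came from whole cultures, in which fewer cells of a type and less RNA per cell cannot be told apart.

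The arrays detected 16860 (35.6%) of 47296 probes at day 6, 17918 with BMP4 plus pyruvate at day 2, 16779 with BMP4, 16661 with pyruvate and 18982 (40.1%) in E8. Of the 36 ribosomal protein genes on the lists used here, 0 passed the 2-fold rule, with differences between -0.61 and 0.43. Among 84 small nucleolar RNA genes, 2 were higher and 16 lower at day 6, with a median difference of -0.50. Their share past the rule, 21.4%, was near the 24.7% of all members. These RNAs carry no poly(A) tail, and what part RNA preparation had in their median was not tested. The defining markers of undifferentiated cells, POU5F1, NANOG, SOX2, LIN28A, DNMT3B, ZFP42 and CRIPTO, were all detected on the E8 array.

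At day 6, 1494 genes (12.4%) were higher and 1475 (12.3%) lower than in E8, together 24.7% of the members. The median difference over all members was -0.04, and the middle 50% of genes lay between -0.55 and 0.48. With undetected probes held at their bound, 119 genes were at least 16-fold higher and 25 at least 16-fold lower, and 18 and 1 passed 64-fold. On the measured levels alone these counts were 148 and 43 at 16-fold and 24 and 4 at 64-fold. Among genes detected on both arrays, 959 were higher and 858 lower at 2-fold, 54 and 13 at 16-fold, and 9 and 0 at 64-fold.

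**Figure D1:**
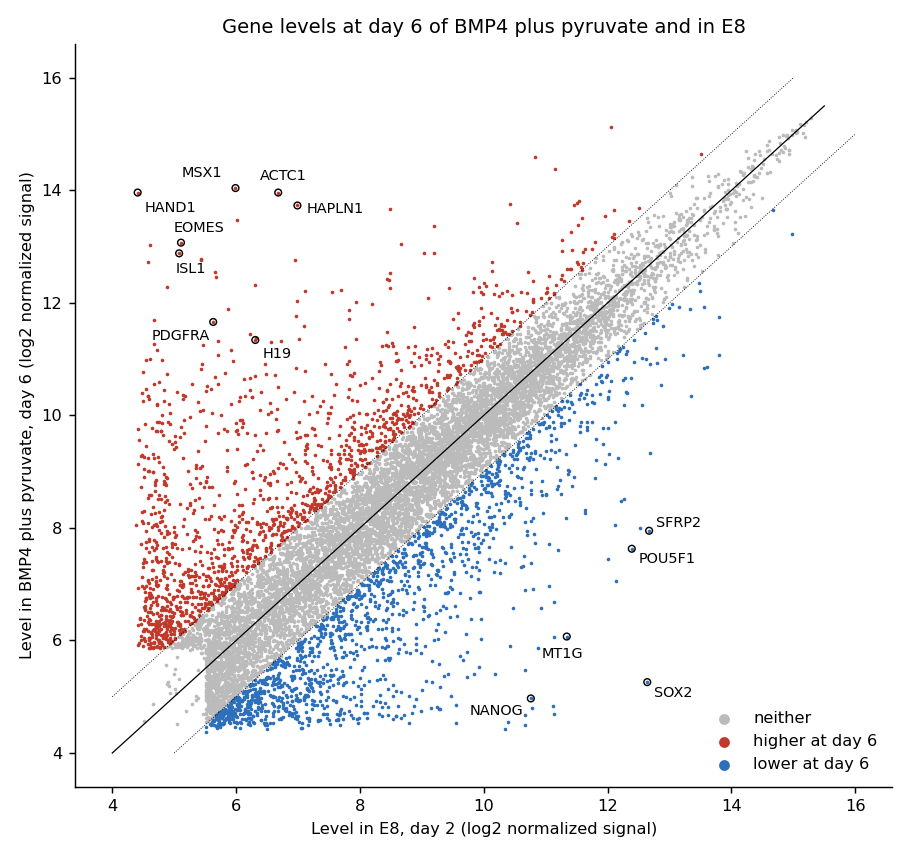
Each point is a gene detected on either array, with its log2 level at day 6 of BMP4 plus pyruvate on the vertical axis and in E8 on the horizontal axis; the solid line marks equal levels and the dotted lines a 2-fold difference. HAND1 stands at 13.96 at day 6 and 4.41 in E8, near MSX1 and EOMES at the upper left, while SOX2 (5.26 at day 6, 12.64 in E8) and NANOG lie at the bottom of the plot, below detection at day 6.

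Genes that mark undifferentiated cells were lower as a group at day 6. Of 34 pluripotency genes detected, 28 were lower, 0 higher and 6 neither, with a median difference of -2.17, or -1.87 with undetected genes at their bound, against -0.04 for all members. Detection in E8 only made 11 of them members, and the 23 detected on both arrays had a median of -1.79. SOX2, a transcription factor of the core pluripotency circuit, had a level of 5.26 at day 6, 9.83 with BMP4 plus pyruvate at day 2, 11.88 with BMP4, 12.53 with pyruvate and 12.64 in E8. It was not detected at day 6 and was at least 109-fold lower there. NANOG, its partner in that circuit, had 4.97 at day 6, against 10.32, 10.44 and 11.20 on the BMP4 plus pyruvate, BMP4 and pyruvate arrays of day 2 and 10.76 in E8. NANOG was at least 29.8-fold lower and not detected at day 6, whereas the 4 day 2 arrays lay close together. POU5F1, which encodes OCT4, stayed detected, with 7.63 at day 6, 12.67, 12.37 and 12.17 on the 3 treated arrays of day 2, and 12.39 in E8, a 27.0-fold difference. Near-identical pseudogene copies of POU5F1 and NANOG exist, and which of them the probes can also read was not tested.

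The other pluripotency genes fell into those lost below detection and those kept at a lower level. UTF1, a chromatin-bound factor of stem cells, was at least 22.2-fold lower, PRDM14, a repressor of differentiation genes, at least 7.16-fold, and KLF4, a reprogramming factor, at least 4.62-fold. KLF4 differed by -1.55 in log2 by a further probe. DNMT3B, a de novo DNA methyltransferase, kept a level of 11.08 at day 6, against 13.80 in E8, and its further probes gave differences of -3.04, -2.57 and -2.86. LIN28A, an RNA-binding protein that blocks let-7 processing, had 11.92 at day 6 and 13.56 in E8. LIN28B, its paralog, had 12.54 at day 6 and 12.37 in E8, and the zinc finger factor SALL4 had 11.47 and 12.29, neither past the rule. SFRP2, a secreted WNT antagonist, was 26.5-fold lower (7.95 at day 6, 12.67 in E8), and ZSCAN10, a zinc finger partner of OCT4, was 16.6-fold lower. POLR3G, a subunit of RNA polymerase III that is abundant in stem cells, was 33.8-fold lower, and both of its further probes also gave lower values (-4.79 and -2.73).

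The promoter of NANOG is shown because it holds a composite site at which SOX2 and OCT4 are known to bind side by side, and all of those genes were lower. Capitals mark the match to this SOX-OCT element, the SOX site CATTGTN followed directly by the octamer site ATGCAAA, searched on both strands in the 250 bases before the annotated start. In NANOG the match is on the minus strand. The sequence lies on the plus strand at chr12:7789252-7789401 of GRCh38.p14 (RefSeq) and ends at the base before the start.
NANOG: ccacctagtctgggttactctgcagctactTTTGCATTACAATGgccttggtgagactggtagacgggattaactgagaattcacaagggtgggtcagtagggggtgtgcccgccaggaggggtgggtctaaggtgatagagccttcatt

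This motif was found in 2 of 27305 RefSeq promoters (0.00732%), and in 1 of the 23 pluripotency genes with a promoter in the table. The match is a description of the letters and says nothing of binding in these cells.

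Genes of the primitive streak were higher at day 6. Of 15 detected, 12 were higher and 1, NODAL, was lower, with a median difference of 3.49 (2.96 with bounds). Detection at day 6 only made 7 of them members, and the 8 detected on both arrays had a median of 2.82. EOMES, a T-box factor of streak and endoderm, had 13.07 at day 6, 12.66 with BMP4 plus pyruvate at day 2, 11.30 with BMP4, 5.24 with pyruvate and 5.11 in E8. It was at least 188-fold higher than in E8, and its levels with BMP4 at day 2 were already well above the arrays without it. TBXT, brachyury, the classical streak and notochord factor, had 8.49 at day 6, 10.78 with BMP4 plus pyruvate at day 2, 7.46 with BMP4, 5.29 with pyruvate and 4.88 in E8, at least 7.89-fold higher. Its highest level, like that of the homeobox factor MIXL1 (8.78 at day 6, 9.82 with BMP4 plus pyruvate at day 2, 4.83 in E8), was on the day 2 array of the same mixture.

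LHX1, a LIM homeobox factor of streak and intermediate mesoderm, was seen only at day 6, with 10.99, against 5.20, 4.92, 4.64 and 4.80 on the day 2 arrays, at least 44.4-fold higher than in E8. SP5, a WNT-responsive zinc finger factor, had 10.47 at day 6, 10.24 with BMP4 plus pyruvate at day 2, 4.96 with BMP4, 4.65 with pyruvate and 4.55 in E8. MESP1, a bHLH factor of early heart precursors, had 9.68 at day 6, 7.11 with the same mixture at day 2, and 6.18 in E8, 11.3-fold higher. Both CDX2, a caudal homeobox factor, and CYP26A1, which degrades retinoic acid, were also higher, at least 7.28-fold and 14.5-fold.

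Transcription factors of lateral and cardiac mesoderm gave the highest list median but one. Of 28 detected, 25 were higher, 0 lower and 3 neither, with a median difference of 3.93 (3.36 with bounds). But 20 of the 28 were members by detection at day 6 only, which largely fixed their direction. The 8 detected on both arrays had a median of 3.89. HAND1, a bHLH factor of the heart, lateral mesoderm and extraembryonic mesoderm, had 13.96 at day 6, 9.89 with BMP4 plus pyruvate at day 2, 9.87 with BMP4, 4.50 with pyruvate and 4.41 in E8. The bound for HAND1, at least 349.5-fold, was the highest of all genes. MSX1, a homeobox factor downstream of BMP, had 14.04 at day 6, 8.66, 6.38 and 5.38 on the treated arrays of day 2, and 5.99 in E8. MSX1 differed by 264-fold, the most of any gene detected on both arrays. ISL1, a LIM homeobox factor of second heart field and amnion, had 12.88 at day 6 and between 5.08 and 5.42 on the 4 day 2 arrays, at least 164-fold higher than in E8.

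Other heart and mesoderm factors were detected at day 6 and not in E8. MEIS2, a cofactor of HOX proteins, was at least 72.2-fold higher, though 2.97 in log2 by a further probe, and its paralog MEIS1 at least 17.5-fold. The forkhead factors of lateral mesoderm FOXF1 and FOXF2 were at least 5.82-fold and 13.6-fold higher. GATA4, HAND2 and TBX2, which act in heart formation, were at least 9.48-fold, 11.3-fold and 3.81-fold higher. NKX2-5, the homeobox factor of committed heart precursors, had 6.01 at day 6 and 4.46 in E8, at least 1.41-fold higher, and TBX5 and MEF2C were not detected on either array. IRX3, an Iroquois homeobox factor, was 118-fold higher (12.54 at day 6, 5.66 in E8) and TBX3, a T-box factor, 30.3-fold. PDGFRA, the receptor that marks paraxial and cardiac mesoderm precursors, had 11.66 at day 6, between 5.08 and 6.61 on the treated arrays of day 2, and 5.63 in E8, and its further probe differed by 6.10. Its ligand PDGFA moved the other way, with 5.91 at day 6 and 10.43 in E8, 22.9-fold lower, or -1.47 by a further probe.

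**Figure D2:**
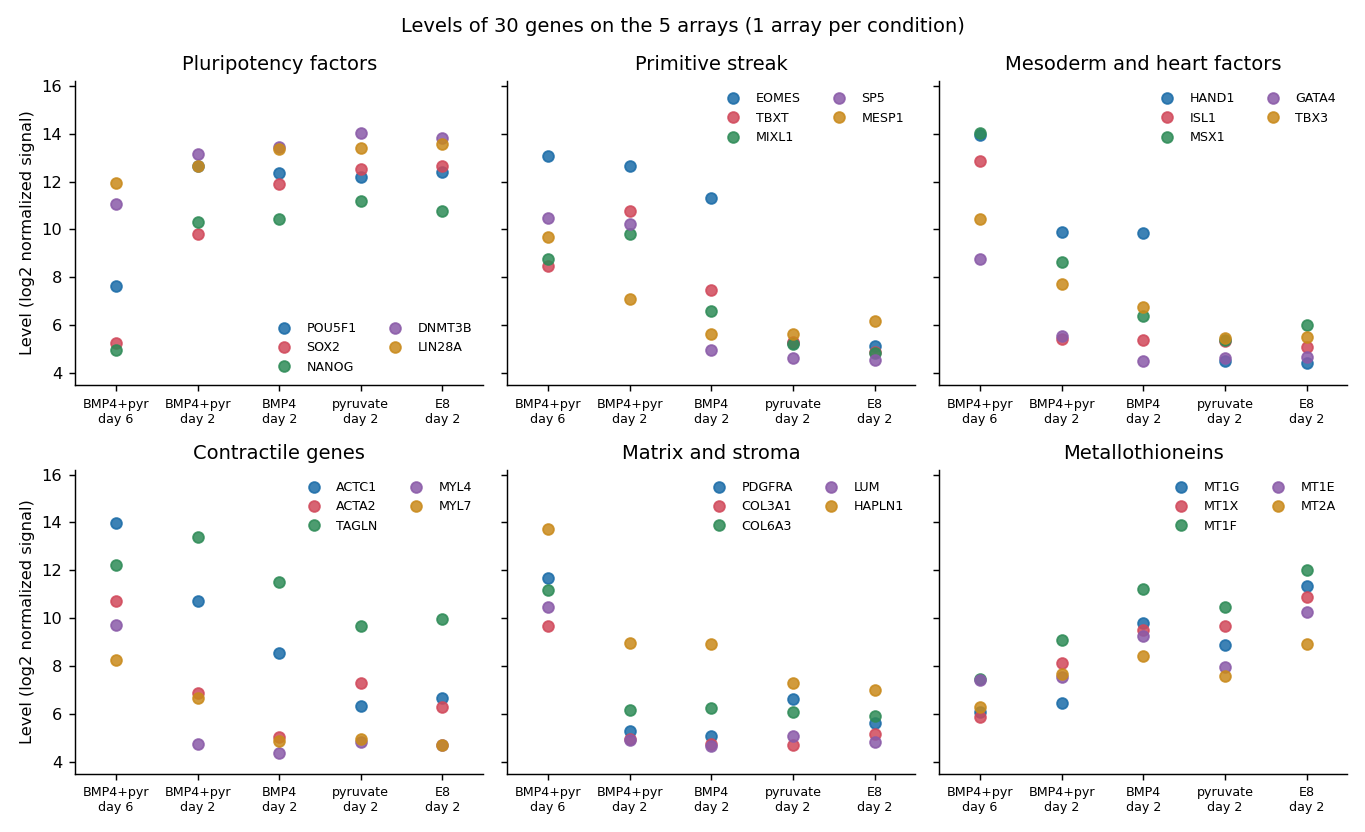
Each panel gives the log2 levels of 5 genes on the 5 arrays, with BMP4 plus pyruvate at day 6 on the left and E8 on the right, and 1 point per gene and array. SOX2, NANOG and POU5F1 are lowest at day 6, EOMES is high with BMP4 at day 2 and day 6, and ISL1 stands at 12.88 at day 6 and at or below 5.42 on the other arrays.

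Targets of BMP signalling were mostly higher, with an exception among the most direct ones. Of 18 detected, 14 were higher, 0 lower and 4 neither, with a median of 2.39. Detection at day 6 only made 8 of them members, and the 9 detected on both arrays had a median of 1.79. BAMBI, a decoy receptor induced by BMP, had 14.60 at day 6, 13.55 with BMP4 plus pyruvate and 13.56 with BMP4 at day 2, 11.23 with pyruvate and 10.82 in E8, 13.8-fold higher. ID1, an inhibitor of bHLH factors and an immediate SMAD target, had 10.91 at day 6, 13.30 with BMP4 plus pyruvate and 12.86 with BMP4 at day 2, 11.03 with pyruvate and 10.91 in E8. ID1 at day 6 was thus at its E8 level, a difference of 0.00 by this probe and 0.65 by a further one. Its relatives ID2, ID3 and ID4 were higher at day 6, by 2.79-fold, 3.46-fold and at least 7.60-fold. ID3, like ID1, was above its day 6 level with BMP4 at day 2 (11.60 at day 6, 13.13 with BMP4 plus pyruvate and 12.39 with BMP4 at day 2, 9.82 in E8).

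Ligands of the family went in both directions. BMP2 had 11.31 at day 6, 7.63, 5.59 and 6.72 on the treated arrays of day 2, and 6.57 in E8, 26.7-fold higher. The gene for BMP4 itself had 7.75 at day 6, between 4.57 and 4.98 on the treated arrays of day 2, and 4.71 in E8, at least 4.70-fold higher, and BMP5 was at least 7.69-fold higher. BMPER, a secreted BMP-binding protein, was detected at day 6 only, at 12.28, and was at least 109-fold higher by the probe used. Its further probe differed by only 1.97 in log2. In the wider list of 29 BMP and TGF-beta ligands, receptors and SMADs, 14 were higher, 3 lower and 12 neither, and the 3 lower ones were GDF3, ACVR2B and BMP7. SMAD2, SMAD3, SMAD4 and SMAD5, which carry the signal to the nucleus, differed by less than 2-fold, from -0.29 for SMAD2 to 0.72 for SMAD3, while SMAD6, an inhibitory SMAD that BMP induces, was 5.55-fold higher.

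WNT pathway genes were more often higher than lower. Of 40 detected, 20 were higher, 5 lower and 15 neither, with a median of 0.96. Detection at day 6 only made 9 of them members, and the 31 detected on both arrays had a median of 0.38. LEF1, a nuclear effector of the pathway, had 11.89 at day 6, 8.20 with BMP4 plus pyruvate at day 2, 6.35 with BMP4, 5.96 with pyruvate and 5.87 in E8, 64.7-fold higher. WLS, which carries WNT proteins to the cell surface, had 12.78 at day 6, 10.54, 8.34 and 6.05 on the treated arrays of day 2, and 5.43 in E8, at least 154-fold higher. Further probes of WLS differed by 4.77 to 5.86 in log2. The ligands WNT3, WNT5A and WNT5B were 6.84-fold, 7.27-fold and 7.79-fold higher. The secreted inhibitor DKK1 had 10.73 at day 6 and 4.88 in E8 (at least 37.2-fold higher, and 1.75 by a further probe), and its relative DKK4 was at least 26.8-fold higher. RSPO3, a secreted amplifier of WNT signals, and its receptor LGR5 were at least 28.6-fold and 9.51-fold higher. AXIN2, a feedback target used as a readout of the pathway, had 10.79 at day 6 and 10.70 in E8 and was neither. The 5 lower genes were SFRP2, FZD5, TCF7L1, FZD3 and SFRP1, so secreted antagonists stood on both sides, and so did frizzled receptors, as FZD7 was higher (1.87). FZD7 differed by 0.42 by a further probe, short of the rule.

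NODAL signalling genes went in both directions, 3 higher and 4 lower of 11 (median -0.01). NODAL itself had 8.24 at day 6, 11.85 with BMP4 plus pyruvate at day 2, 10.18 with BMP4, 10.73 with pyruvate and 9.47 in E8, 2.35-fold lower. Its feedback inhibitors differed from each other, since LEFTY1 was 3.47-fold lower (7.57 at day 6, 9.37 in E8) and LEFTY2 21.8-fold higher (10.92 at day 6, 6.47 in E8). These genes are neighbours of similar sequence, and each was read by 1 probe. CER1, a secreted inhibitor of NODAL, BMP and WNT, was at least 32.9-fold higher, and CRIPTO, the NODAL co-receptor, 3.46-fold lower.

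FGF pathway genes were 5 higher and 8 lower of 25. FGF2, the ligand that E8 supplies and stem cells also make, had 8.07 at day 6 and 10.14 in E8, 4.19-fold lower. FGFR4 was 8.87-fold lower, FGF19 6.76-fold and ETV4, a target factor, 3.38-fold. FGFR4 differed by -1.99 in log2 by a further probe. The feedback inhibitors DUSP6 and SPRY2 were 3.62-fold and 2.39-fold higher, and FGF17, a ligand of the streak, at least 7.57-fold. In the retinoic acid list, 9 of 17 genes were higher and 1 lower. STRA6, which takes up retinol, differed by 2.95, and ALDH1A2, which makes retinoic acid in mesoderm, by 1.55. Of 17 NOTCH genes, 3 were higher and 5 lower, and HEY1, a target repressor that BMP also induces, was 20.5-fold higher (11.36 at day 6, 7.01 in E8). HEY1 differed by 2.18 in log2 by a further probe.

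Of 20 contractile genes of heart and smooth muscle detected, 13 were higher, 1 (the troponin gene TNNI3) lower and 6 neither, with a median of 1.25. ACTC1, cardiac alpha-actin, had 13.96 at day 6, 10.73 with BMP4 plus pyruvate at day 2, 8.54 with BMP4, 6.31 with pyruvate and 6.68 in E8, 156-fold higher. ACTA2, smooth muscle actin, had 10.70 at day 6 and 6.30 in E8, 21.1-fold higher, and the atrial myosin light chains MYL4 and MYL7 were at least 18.4-fold and 6.74-fold higher. TAGLN, which binds actin in smooth muscle, had 12.20 at day 6, 13.38 with BMP4 plus pyruvate at day 2, 11.51 with BMP4 and 9.96 in E8, so its highest level was at day 2. Several structural genes of beating heart muscle were not detected on either array, among them MYH7, TNNC1, PLN and NPPA, and MYH6 was neither (-0.41). TMOD1, which caps the slow-growing end of actin filaments, was 111-fold higher, with 12.46 at day 6, between 5.08 and 5.79 on the treated arrays of day 2, and 5.68 in E8.

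The promoters of ACTC1 and MYL7 are shown because each holds a CArG box, the site of serum response factor, which controls actin and myosin genes in muscle. Capitals mark the CArG box. Both sequences are the 150 bases before the annotated start, given 5′ to 3′ on the minus strand, at chr15:34795550-34795699 for ACTC1 and chr7:44141333-44141482 for MYL7 in GRCh38.p14 (RefSeq).
ACTC1: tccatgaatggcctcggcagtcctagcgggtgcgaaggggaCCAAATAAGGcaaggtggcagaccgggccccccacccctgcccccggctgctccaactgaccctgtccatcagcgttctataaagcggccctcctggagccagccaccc
MYL7: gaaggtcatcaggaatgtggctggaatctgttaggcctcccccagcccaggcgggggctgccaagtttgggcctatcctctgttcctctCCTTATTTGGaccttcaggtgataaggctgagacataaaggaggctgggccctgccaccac

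A CArG box within 250 bases before the start was found in 312 of 27305 promoters (1.14%), and in 5 of the 16 contractile genes with a promoter. The other 3, ACTA1, ACTG2 and CNN2, were neither higher nor lower (differences of 0.01, 0.93 and -0.59), so the box was present in genes of both kinds.

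Genes of endothelium and blood precursors were detected in 13 of 32 cases, and 11 of those were higher and 0 lower (median 2.86). Detection at day 6 only made 6 of them members, and the 7 detected on both arrays also had a median of 2.86. LMO2, a cofactor of blood and vessel precursors, had 10.55 at day 6, between 5.81 and 6.04 on the treated arrays of day 2, and 5.71 in E8, 28.5-fold higher. KDR, the VEGF receptor of mesoderm and endothelium, had 10.71 at day 6, 9.62, 8.95 and 8.64 on the treated arrays of day 2, and 7.84 in E8, 7.27-fold higher. TEK, the angiopoietin receptor, and its ligand ANGPT2 were at least 16.3-fold and 44.1-fold higher, VWF, a clotting factor made by endothelium, 13.2-fold and the embryonic globin HBE1 8.85-fold. ANGPT2 differed by 4.20 in log2 by a further probe. CDH5 and PECAM1, junction genes of mature endothelium, and TAL1, RUNX1 and GATA1 were not detected on either array. NRP1, a co-receptor for VEGF and semaphorins, was at least 50.1-fold higher by the probe used, and 2.77 in log2 by a further probe.

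Endoderm genes were mixed. Of 16 detected, 8 were higher, 4 lower and 4 neither. FOXA2, a forkhead factor of endoderm and midline, had 9.88 at day 6 and 4.90 in E8, at least 20.6-fold higher, and SOX17 9.56 and 4.43, at least 16.5-fold higher. The 4 lower ones, CLDN6, KIT, LEFTY1 and HHEX, were detected on both arrays. The list's median was 1.86 over all its detected genes and -1.20 over the 8 detected on both. Of 16 genes of yolk sac endoderm and liver, 3 were detected, and AFP and APOA1 were at least 3.94-fold and 3.10-fold higher.

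Trophoblast and amnion genes were detected in 23 of 51 cases, with 16 higher, 3 lower and 4 neither and a median of 2.24 (1.34 with bounds). Detection at day 6 only made 13 of them members, and the 8 detected on both arrays had a median of 0.79. The list's median level was 8.10 at day 6, 6.44 with BMP4 plus pyruvate and 6.21 with BMP4 at day 2, 5.22 with pyruvate and 5.10 in E8. TFAP2A, a factor of amnion, trophoblast and surface ectoderm, had 11.26 at day 6, 11.19 and 11.39 on the day 2 arrays with BMP4, 4.64 with pyruvate and 4.67 in E8. ENPEP, a surface peptidase of early trophoblast, was at least 26.0-fold higher and GATA3 at least 2.94-fold. ISL1, CDX2, HEY1 and DLX5 stand on this list and on a mesoderm, streak, NOTCH or BMP list too. TFAP2C, a factor of trophoblast, germ cells and stem cells, was 5.92-fold lower. The hormone genes CGA, CGB3 and CGB5, the PSG genes listed, HSD3B1, ELF5 and the syncytin gene ERVW-1 were not detected on either array.

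Among 22 neuroectoderm genes, 5 were higher, 10 lower and 7 neither, with a median of -0.73 (-0.49 with bounds). Detection in E8 only made 6 of them members and detection at day 6 only made 3. The 13 detected on both arrays had a median of -0.39. SOX21, SOX3 and SIX6, factors of neural progenitors and forebrain, were at least 38.1-fold, 27.8-fold and 30.1-fold lower. SIX6 had 4.80 at day 6, 7.80 with BMP4 plus pyruvate and 7.66 with BMP4 at day 2, 10.95 with pyruvate and 10.78 in E8, so that arrays with BMP4 were lower and the day 6 array lowest. PAX6 and SOX1, defining genes of neural progenitors, were not detected on either array. LHX2, a LIM homeobox factor, was at least 8.38-fold higher and the adhesion molecule NCAM1 11.5-fold, or 1.22 in log2 by a further probe. Of 10 primordial germ cell genes, 7 were lower and 1 (PRDM1, a repressor also found in endoderm) higher. The lowest difference on this list, -5.91, was that of UTF1, already given among the pluripotency genes, so the lists share members.

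Mesenchymal genes were higher and some epithelial ones lower. Of 27 genes of mesenchyme and of epithelial-mesenchymal transition, 22 were higher, 2 lower and 3 neither, with a median of 2.43. Detection at day 6 only made 11 of them members, and the 15 detected on both arrays had a median of 1.92. CDH11, a mesenchymal cadherin, had 12.77 at day 6, 7.15, 6.46 and 7.59 on the treated arrays of day 2, and 6.95 in E8, 56.7-fold higher. SNAI2, a repressor of epithelial genes, had 10.56 at day 6 and 4.68 in E8, at least 33.0-fold higher, and TWIST1 and ZEB2 were at least 11.2-fold and 11.9-fold higher. VIM, the intermediate filament vimentin, had 14.37 at day 6 and 11.15 in E8, 9.34-fold higher. The 2 lower ones were THBS2, at least 22.9-fold, and THY1, 7.50-fold, a surface antigen of fibroblasts that undifferentiated stem cells also carry.

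Of 27 epithelial genes, 10 were lower, 3 higher and 14 neither, with a median of -0.73 (-0.43 with bounds). Detection in E8 only made 5 of them members, and the 22 detected on both arrays had a median of -0.58. CLDN10 and CLDN7, tight junction claudins, were 6.92-fold and 6.77-fold lower, and the epithelial regulators ESRP1 and GRHL2 4.09-fold and 3.58-fold. CDH1, the epithelial cadherin, had 11.73 at day 6 and 12.50 in E8, and EPCAM had 12.78 and 13.06, both neither. KRT19 and KRT8, keratins of simple epithelia, were 4.81-fold and 2.25-fold higher. CDH2, the cadherin of mesoderm and nerve, had 13.50 at day 6 and 11.58 in E8, 3.79-fold higher.

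Matrix genes were more often higher than lower. Of 25 collagens, 15 were higher, 4 lower and 6 neither. COL6A3, a microfibril collagen, had 11.16 at day 6, between 6.09 and 6.25 on the treated arrays of day 2, and 5.92 in E8, 37.5-fold higher, and its further probe differed by 5.13. COL3A1, a fibrillar collagen of soft tissue, was at least 17.9-fold higher, COL5A1 20.9-fold and COL1A1 6.73-fold. The lower collagens were COL9A1, COL8A1, COL12A1 and COL21A1. Further probes of COL8A1 and COL12A1 differed by -0.65 and -0.66, short of the rule. HAPLN1, which links hyaluronan to proteoglycans, had 13.73 at day 6, 8.96, 8.94 and 7.29 on the treated arrays of day 2, and 6.99 in E8, 107-fold higher and 6.92 by a further probe. HAS2, a hyaluronan synthase that the embryonic heart needs in the mouse, was 64.5-fold higher, or 3.55 in log2 by a further probe, and HAS3, another synthase, 8.44-fold lower.

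Of 13 integrins, which bind cells to the matrix, 6 were higher, 1 lower and 6 neither, with a median of 0.63. ITGA5, the fibronectin receptor, had 11.58 at day 6 and 7.10 in E8, 22.4-fold higher, ITGA9 was 11.3-fold and ITGAV 6.02-fold higher. ITGA6, a laminin receptor of stem cells and epithelia, had 5.32 at day 6 and 8.33 in E8, at least 5.51-fold lower. Of 10 fibroblast and pericyte genes, 8 were higher, 1 lower and 1 neither, with a median of 4.46 and differences from -2.91 to 6.03. The largest, 6.03, was that of PDGFRA, already given among the mesoderm genes. LUM, a collagen-binding proteoglycan, was at least 30.7-fold higher, PDGFRB, the pericyte receptor, 31.8-fold and RGS5, a pericyte gene, at least 29.8-fold. LUM differed by 3.12 in log2 by a further probe. COLEC12, a collectin and scavenger receptor, had 13.47 at day 6, 8.53, 7.70 and 6.19 on the treated arrays of day 2, and 6.01 in E8, 176-fold higher.

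**Figure D3:**
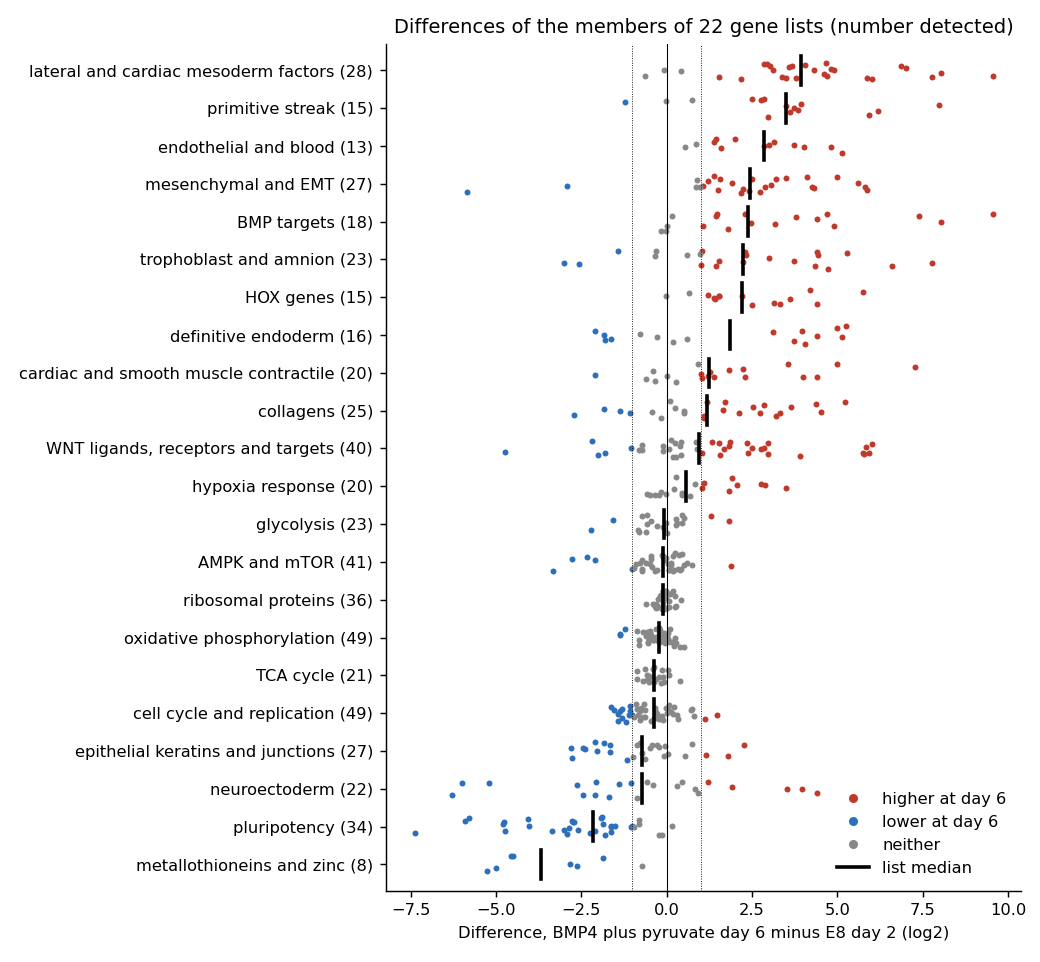
Each point is a gene of 1 of 22 lists, placed by its log2 difference, day 6 minus E8; the black bar is the list's median, the dotted lines mark 2-fold and the number detected stands after each list's name. The lateral and cardiac mesoderm list lies at the top with a median of 3.93 and the metallothioneins at the bottom with -3.67, while the TCA cycle and ribosomal protein genes all lie within 2-fold.

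HOX genes, which set position along the body axis, were detected in 15 of 29 cases, and 13 were higher and 0 lower (median 2.20, or 1.24 with bounds). Detection at day 6 only made 11 of them members, and the 4 detected on both arrays had a median of 1.90. HOXB2 had 10.35 at day 6 and between 4.52 and 4.69 on all 4 day 2 arrays, with 4.58 in E8, at least 28.5-fold higher. HOXB5 was 18.4-fold higher (10.25 at day 6, 6.05 in E8), HOXC6 at least 14.8-fold, HOXB8 at least 6.66-fold and HOXD11 at least 7.51-fold. The higher genes came from the A, B, C and D clusters, and HOXD3 and HOXC13 were neither.

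Growth genes that are imprinted or bind IGF were 9 higher and 3 lower of 19. H19, an imprinted noncoding RNA expressed from the maternal copy, had 11.34 at day 6, between 4.97 and 6.31 on the treated arrays of day 2, and 6.31 in E8, 32.6-fold higher. PLAGL1, an imprinted zinc finger factor, was at least 20.6-fold higher, DLK1, an imprinted NOTCH-like ligand, 13.1-fold, and the binding proteins IGFBP7 and IGFBP3 22.7-fold and 21.8-fold. Further probes of PLAGL1 and DLK1 differed by 3.12 and 2.15 in log2. IGFBP2, the binding protein of stem cells, was 2.73-fold lower. Among 34 guidance genes, 14 were higher and 3 lower, and EPHA4 and PLXNA2, receptors for ephrins and semaphorins, differed by 3.76 and 3.79. PLXNA2 differed by 0.93 by a further probe, short of the rule.

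The metallothioneins were lower together; they are small cysteine-rich proteins that hold zinc and copper. Of 8 genes of the metallothionein and zinc list detected, 7 were lower, 0 higher and 1 neither, with a median of -3.67 (-3.13 with bounds), the lowest list median. MT1G had 6.07 at day 6, 6.44 with BMP4 plus pyruvate at day 2, 9.80 with BMP4, 8.89 with pyruvate and 11.34 in E8, 38.4-fold lower, the most of any gene detected on both arrays. MT1X had 5.87 at day 6, 8.13, 9.51 and 9.66 on the treated arrays of day 2, and 10.88 in E8, 32.2-fold lower. MT2A had 6.29 at day 6, 7.67, 8.40 and 7.57 on the treated arrays of day 2, and 8.90 in E8, 6.11-fold lower. Each of these genes was highest in E8 and lowest at day 6. The MT1 genes are near-identical copies, so a probe may read more than 1 of them. SLC30A1, the zinc exporter that the same metal sensor controls, was at least 3.31-fold lower by the probe used, which was not detected at day 6, and -1.08 by a further probe, and MTF1, the sensor, had 7.71 at day 6 and 8.44 in E8, not past the rule.

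The promoters of MT1X and MT2A are shown because both hold several copies of the metal response element, the site of MTF1. Capitals mark each match to its core, TGCNCNC, on either strand. The MT1X sequence is at chr16:56682320-56682469 and the MT2A sequence at chr16:56608414-56608583, both on the plus strand of GRCh38.p14 (RefSeq), and both end at the base before the start.
MT1X: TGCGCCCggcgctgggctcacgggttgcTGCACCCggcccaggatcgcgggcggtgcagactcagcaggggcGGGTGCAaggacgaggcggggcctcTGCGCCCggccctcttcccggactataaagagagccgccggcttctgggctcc
MT2A: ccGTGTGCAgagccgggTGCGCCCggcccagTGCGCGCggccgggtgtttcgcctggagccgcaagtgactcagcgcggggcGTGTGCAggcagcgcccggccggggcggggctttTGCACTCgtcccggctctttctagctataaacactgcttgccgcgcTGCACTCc

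The core is short and common: 48.4% of the 27305 promoters hold at least 1 copy in the 250 bases before the start, and 5.74% hold 3 or more. MT1X held 4 copies, MT2A 7 and MT1H 8, SLC30A1 held 1, and MTF1 held 0.

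Fewer genes of the TCA cycle and of oxidative phosphorylation passed the rule than the 24.7% of all members. Of 21 TCA cycle genes, 0 passed the rule in either direction, and their differences ran from -0.88 to 0.40 (median -0.38). Of 49 genes of oxidative phosphorylation, 3 were lower (CYCS, NDUFS1 and ATP5MC1) and 46 neither, with a median of -0.22. Of 23 glycolysis genes, 2 were higher, 2 lower and 19 neither (17.4% past the rule), with a median of -0.07. PKM, pyruvate kinase, had 13.25 at day 6, 12.21, 11.50 and 11.31 on the treated arrays of day 2, and 11.41 in E8, 3.59-fold higher, with 1.95 and 1.54 by further probes. PFKP, a phosphofructokinase, was 2.44-fold higher. HK2, hexokinase 2, had 8.19 at day 6 and 10.40 in E8, 4.65-fold lower, or -1.36 in log2 by a further probe. ENO2, an enolase, was 2.97-fold lower.

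Genes that handle pyruvate and lactate were 3 higher, 1 lower and 13 neither, so 23.5% passed the rule, near the 24.7% of all members. Of the kinases that switch off pyruvate dehydrogenase, PDK1 was 2.13-fold higher (6.96 at day 6, 5.88 in E8), PDK4 at least 2.51-fold higher, and PDK3 3.23-fold lower (9.88 at day 6, 11.57 in E8). ME1, malic enzyme, was 2.37-fold higher. The lactate dehydrogenase genes LDHA (0.28) and LDHB (-0.60) and the mitochondrial pyruvate carrier genes MPC1 (-0.05) and MPC2 (0.72) were neither. TXNIP, which curbs glucose uptake, had 11.33 at day 6, 7.92 with BMP4 plus pyruvate at day 2, 9.75 with BMP4, 9.34 with pyruvate and 10.59 in E8, a difference of 0.74 from E8, and was neither. Its relative ARRDC3 was 5.99-fold higher, or 0.98 in log2 by a further probe.

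Of 41 genes around the kinases AMPK and mTOR, which sense energy and nutrients, 1 was higher, 5 lower and 35 neither, with a median of -0.09. The share past the rule was 14.6%, against 24.7% of all members. RRAGD, a GTPase that brings mTORC1 to lysosomes, had 7.72 at day 6 and 11.05 in E8, 10.1-fold lower. The mTOR inhibitors DDIT4L and DEPTOR were 6.87-fold and at least 4.17-fold lower, and DEPTOR differed by -1.65 in log2 by a further probe. Targets of ATF4, the factor of the integrated stress response, were neither in 30 of 31 cases (3.23% past the rule). The exception was DDIT3, at least 3.25-fold higher. Of 20 hypoxia response genes, 8 were higher and 0 lower (40% past the rule, median 0.57). They included PLOD2, which modifies collagen and was 7.42-fold higher, and ANGPTL4, which inhibits lipoprotein lipase and was 11.3-fold higher, though only 0.18 and 0.96 in log2 by its further probes. VEGFA (-0.01) and SLC2A1 (-0.58), also on that list, were neither.

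Of 49 cell cycle and replication genes, 12 were lower, 2 higher and 35 neither, with a median of -0.38. The share past the rule, 28.6%, was near the 24.7% of all members. ORC1, MCM4, CDT1 and MCM5, which license replication origins, were 3.08-fold, 2.88-fold, 2.70-fold and 2.66-fold lower, while MCM3 (-0.95), MCM6 (-0.62) and ORC6 (0.12) were neither. MKI67, a marker of cycling cells, had 6.82 at day 6 and 8.18 in E8, 2.56-fold lower, while TOP2A, another, had 12.48 at day 6 and 12.40 in E8 and was neither. CDK6 and the inhibitor CDKN2B were higher, 2.19-fold and at least 1.81-fold. Of 22 polycomb and chromatin genes, 2 were higher, 2 lower and 18 neither, so 18.2% passed the rule, fewer than the 24.7% of all members. BMI1 and SMARCA2 were 5.75-fold and 5.14-fold higher, and PHC1 and JARID2 were lower (PHC1 6.38-fold). TET1, which oxidises methylcytosine, was 2.36-fold lower and DNMT1, the maintenance methyltransferase, neither (-0.21). For DNMT3A the probe used was not detected at day 6 (4.84, against 6.23 in E8), which bounds the fold at 1.29 or more, while the further probe differed by 0.39, and the direction turned under 3 of the alternative settings.

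Most of the genes past the rule were at their extreme at day 6. Of the 1494 higher genes, 1388 (92.9%) had their highest level of all 5 arrays at day 6, and in 888 (59.4%) that level was at least 2-fold above every other array. Of the 1475 lower genes, 1375 (93.2%) were lowest at day 6, 681 (46.2%) by at least 2-fold. Each of these genes was chosen for a 2-fold difference between day 6 and E8, so these shares are partly fixed by that choice. The median level of the higher genes was 8.63 at day 6, 6.80 with BMP4 plus pyruvate and 6.64 with BMP4 at day 2, 6.38 with pyruvate and 6.21 in E8. The lower genes had medians of 6.26 at day 6, 7.77, 7.94 and 8.19 on the treated arrays of day 2, and 8.28 in E8. The day 2 arrays with BMP4 thus lay between day 6 and E8 for both groups, but the genes were chosen by the 2 end arrays and these medians carry no test. There were 439 genes detected at day 6 and on no day 2 array, 358 of them higher by the rule. Another 480 were detected on all 4 day 2 arrays and not at day 6, 340 of them lower. These patterns of detection largely fix the direction of such genes.

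How far a single probe can be trusted was seen in 3180 genes read by 2 detected probes. The SD of the difference between both probes' values was 0.672 on the log2 scale, which describes the probes and not the spread between cultures. Of 703 genes past 2-fold by the first probe, the second passed in the same direction in 485, had the opposite sign in 38 and passed in the opposite direction in 5.

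**Figure D4:**
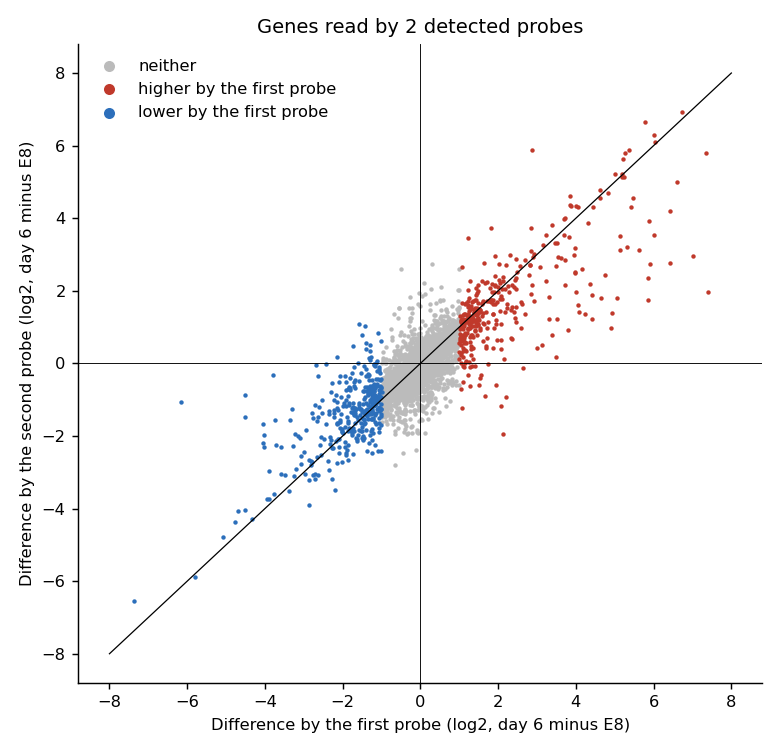
Each point is a gene with 2 detected probes, placed by the log2 difference, day 6 minus E8, of the first probe (horizontal) and of the second probe (vertical); the diagonal marks equal values. Most of the 703 genes past 2-fold by the first probe lie on the same side by the second, and 38 have the opposite sign.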

How the data were processed

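Per the labels' protocols, RNAiso Plus was used to isolate total RNA, and the TargetAmp-Nano kit to make biotin cRNA for Illumina BeadChips. The deposited intensity values were not normalized, per the file headers, and give 1 signal for each probe on an array beside the authors' detection p-value. How the authors made the deposited log2 values is not stated; these served as an alternative. The scanner software is not given in the sources used here. In R 4.3.3, limma 3.58.1's neqc corrected the 5 arrays for background from the detection p-values, added an offset of 16, normalized by quantiles and took log2. Every array then has the same distribution, so a change in total RNA per cell cannot be seen, and the offset shrinks differences of dim probes. Probes were named from the platform annotation: 30105 had 1 symbol, 8 several and 17183 none, and 30066 matched RefSeq. Of several probes of a gene, the one with the highest mean over the 5 arrays was used. All sample columns were used. Python 3.11.15, pandas 2.3.3 and numpy 2.4.6 did the rest.

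With 1 array per condition no test or p-value between conditions was computed, and the number of arrays limits the precision. The steps were tested on simulated data. Named were, in each direction, the 20 largest differences among genes detected on both arrays and the 20 largest bounds, and members of 55 gene lists (1264 genes with a named probe, 1005 of them detected), up to 12 per list or all of a list described in full. The genes on each list that were not detected are named where they define a cell type. The members, lists and sequences were chosen with earlier results of these data known, so no list is independent evidence. Alternatives were neqc on 2 arrays, no background correction, 75th percentile scaling, the deposited log2 values, an offset of 50, a detection p-value under 0.05, only genes detected on both arrays, and other choices of probe.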

Additional observations from a re-analysis of the deposited data

How the results depend on the processing

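Of 1494 higher and 1475 lower genes, 760 and 622 passed with no background correction and 959 and 858 when only genes detected on both arrays were used. Whether the calls lost in the first setting were those of dim probes was not tested, and the second has fewer genes by construction. The other 8 settings gave 1123 to 1578 higher and 1030 to 1503 lower genes. One of them, counting undetected genes only where their bound is 2-fold, gave 1318 and 1146 and was chosen after the data were seen. Under the 10 alternatives, 0 genes were called the other way, and at most 55.0% of calls were higher, against 50.3% in the report's setting. With only genes detected on both arrays, list medians turned to -1.20 for definitive endoderm (1.86 in the report's setting), -0.033 for mesothelium and epicardium (2.27) and -0.077 for kidney and intermediate mesoderm (1.70). DNMT3A was at -1.39 in the report's setting, by a probe not detected at day 6. Its difference was 0.40 with the 2 arrays normalized alone and 0.27 in the deposited log2 values, and why it turned there was not tested. With the probe brightest over the 2 arrays it was 0.39. Only the choice of probe differed in that setting, and 0.39 is the value of its further probe. Across all lists and settings, 510 list medians stayed within 0.672 of the report's setting on the log2 scale and 36 moved further. The 3 counted as turned were the endoderm, mesothelium and kidney medians given above. Sign changes of other, smaller medians were counted as stayed or moved. Neural crest was -0.60 in the report's setting and 0.78 over genes detected on both arrays. The hyaluronan, CD44 and TIMP4 list was -0.32 and 0.53. No paired analysis was possible because each condition has 1 array. Genes below detection have only a bound on their fold, and signal over background limits the counts near 2-fold.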

Other observations

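Some of the genes that differed most at day 6 belong to no lineage list. NPY, a neuropeptide, had a level of 12.76 at day 6, 8.11 with BMP4 plus pyruvate at day 2, 5.69 with BMP4, 7.16 with pyruvate and 5.43 in E8, at least 151.5-fold higher. GAD1, which makes the transmitter GABA, had 11.25 at day 6, 9.85, 6.06 and 6.15 on the treated arrays of day 2, and 5.46 in E8, at least 53.3-fold higher, and its further probes differed by 6.65 and 4.58. DNAH2, a dynein heavy chain of cilia, and CRHBP, which binds corticotropin-releasing hormone, were detected at day 6 and on no day 2 array, at least 45.3-fold and 33.7-fold higher. CRHBP differed by 2.35 in log2 by a further probe. APLNR, the apelin receptor, had 13.02 at day 6, 6.63, 5.38 and 4.95 on the treated arrays of day 2, and 4.61 in E8, at least 182-fold higher.

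Other genes were detected in E8 and not at day 6. CAMKV, a pseudokinase of neurons, had 4.69 at day 6, 9.27, 10.66 and 10.98 on the treated arrays of day 2, and 11.13 in E8, at least 38.5-fold lower. CKMT1A, a mitochondrial creatine kinase with a near-identical copy in CKMT1B, was at least 28.0-fold lower. LMO3, a LIM domain protein, was at least 27.9-fold lower, though its further probe differed by only -1.07. Of 27 genes of MHC class I and interferon, 7 were lower, 3 higher and 17 neither, with a median of -0.24, or 0 with bounds. The share past the rule was 37%, against 24.7% of all members, and 7 of the 27 were detected in E8 only. TAP1, the peptide transporter, was 5.82-fold lower and B2M, the class I light chain, neither (0.99, and 1.51 by a further probe). KLF2, a factor induced by blood flow in endothelium, was 30.5-fold higher. Of 4356 detected probes with no gene name, 347 were higher and 486 lower at day 6.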
